A study of Homo sapiens and Mus musculus with 20 samples.

Results

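The collagen genes were followed across 3 RNA sequencing experiments in the IMR90 line of human lung fibroblasts, which was derived from a fetus. They were chosen by symbol, as every gene whose name is COL, a number, A and a number, and 29 of the 17554 genes in the deposited IMR90 lists met this rule. Of these, 26 were listed in all 3 experiments. COL21A1 and COL25A1 were listed only in the MS-275 experiment, and COL9A3 was listed in the A485 and MS-275 experiments but not in the pyruvate experiment. Wild-type cells received A485, an inhibitor of the acetyltransferase p300, or MS-275, which blocks histone deacetylases of class I, or pyruvate, and untreated cells formed Control2, Control3 and Control6, which were the controls of A485, MS-275 and pyruvate in that order. Each of the 6 groups had 2 libraries. The study asked how these treatments, which it used to lower or raise histone lactylation, act on senescence and gene expression, and gave pyruvate to cells that were already senescent. Doses and times are not in the sample labels, and a line in culture stands here for fibroblasts with no tissue around them. Nothing in the labels says that the 2 libraries of a group came from separate cultures, so p-values measure the spread between these libraries, which may be technical.

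Collagens are helical proteins built from 3 chains, and each chain has its own gene. Fibrillar collagens (types I, III, V, XI, XXIV and XXVII) form the tensile fibers of connective tissue, and fibroblasts are a main source of types I, III and V. Network collagens form sheets, as type IV does in basement membranes and type VIII does beneath endothelia. FACIT collagens (types IX, XII, XIV, XVI and XXI) sit on the surface of fibrils and link them to other matrix. The remaining members include type VI, whose COL6A1, COL6A2 and COL6A3 chains assemble into beaded filaments, type VII of the anchoring fibrils under epithelia, the membrane-spanning types XIII and XXV, and types XV and XVIII of basement membrane zones. In lung fibroblasts collagen output is a textbook measure of matrix production and rises in fibrosis.

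The starts of several collagen genes are shown for the pairs and the single genes whose values are compared below. COL4A1 and COL4A2 are transcribed away from each other, and the 126 bases between the RefSeq starts used here are shown in full. COL4A5 and COL4A6 are a similar pair on chromosome X, with 379 bases between COL4A5 and the nearest RefSeq start of COL4A6, and 1415 bases to the start of the main COL4A6 transcript. COL5A3 is shown as a fibrillar gene that fell after A485 and rose after pyruvate. COL7A1 is the collagen gene with the largest rise after pyruvate as deposited. COL8A2 is a network gene with both MS-275 libraries above both controls. Capitals mark 3 motifs on either strand. They are CCAAT (read as ATTGG on the opposite strand), the GC box GGGCGG (read as CCGCCC) and the TATA box TATAAA (read as TTTATA). Each sequence but the interval is the 250 bases before the RefSeq start in GRCh38.p14.
COL4A1-COL4A2 interval, chr13:110307158-110307283, plus strand: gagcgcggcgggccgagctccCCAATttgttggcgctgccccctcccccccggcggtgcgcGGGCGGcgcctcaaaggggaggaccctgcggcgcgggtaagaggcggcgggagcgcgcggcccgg
COL4A5, chrX:108439588-108439837, plus strand: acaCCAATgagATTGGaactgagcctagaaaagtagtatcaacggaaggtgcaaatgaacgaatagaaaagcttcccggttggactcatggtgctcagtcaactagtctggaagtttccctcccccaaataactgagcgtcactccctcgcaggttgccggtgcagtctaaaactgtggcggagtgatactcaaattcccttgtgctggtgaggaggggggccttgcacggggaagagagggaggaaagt
COL5A3, chr19:10010505-10010754, minus strand: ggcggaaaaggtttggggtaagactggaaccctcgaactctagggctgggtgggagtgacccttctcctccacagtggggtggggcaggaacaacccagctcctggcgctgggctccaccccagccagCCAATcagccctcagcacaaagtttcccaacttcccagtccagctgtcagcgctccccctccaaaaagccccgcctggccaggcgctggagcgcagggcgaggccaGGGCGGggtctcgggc
COL7A1, chr3:48595330-48595579, minus strand: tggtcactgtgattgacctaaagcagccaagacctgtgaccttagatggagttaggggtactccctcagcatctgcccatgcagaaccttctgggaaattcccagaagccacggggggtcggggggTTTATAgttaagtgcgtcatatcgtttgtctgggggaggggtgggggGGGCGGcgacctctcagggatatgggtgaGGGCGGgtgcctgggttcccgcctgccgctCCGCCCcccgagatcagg
COL8A2, chr1:36125223-36125472, minus strand: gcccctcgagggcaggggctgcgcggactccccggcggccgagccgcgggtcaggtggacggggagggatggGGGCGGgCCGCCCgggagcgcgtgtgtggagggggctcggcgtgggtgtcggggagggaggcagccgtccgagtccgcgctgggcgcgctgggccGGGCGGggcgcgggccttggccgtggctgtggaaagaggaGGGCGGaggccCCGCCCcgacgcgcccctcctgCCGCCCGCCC
The COL4A1-COL4A2 interval holds 1 CCAAT and 1 GGGCGG, and 26 of its bases lie in an annotated exon of COL4A2. The COL4A5 window holds 2 matches to CCAAT and none to GGGCGG. COL8A2 has 7 matches to GGGCGG, with overlapping matches counted separately, and COL7A1 has 3 beside 1 TATAAA. Over the 21 collagen genes matched in the RefSeq table, CCAAT was in 5 windows, GGGCGG in 16 and TATAAA in 3, against 32.0%, 42.6% and 10.7% of all 35116 windows of this length. Each collagen gene gave 1 window, while all windows can include several starts of a gene, so the units differ. GC content of the collagen windows ran from 48.8% (COL4A6) to 88.4% (COL18A1). The counts, among them those of GGGCGG, which holds only G and C, were not adjusted for GC content. The CCAAT and GGGCGG of the COL4A1-COL4A2 interval were counted for both genes. All of these are matches of letters and not sites of binding. COL1A1, COL1A2, COL3A1, COL5A2, COL6A1, COL8A1, COL9A3 and COL14A1 were not matched.

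Values below are read counts per gene divided by the size factor that the authors derived for each library, called normalized counts. Depth was 24179065 to 46971227 reads per library, and every value was a whole number of reads in its library, within 0.01 of a read. A gene was called when limma on log2(value + 1) gave a Benjamini-Hochberg adjusted p below 0.05 and a log2 fold change beyond 1 in either direction, among genes with a mean of at least 10. With n = 2 per group, an exact permutation test of a single gene cannot go below p = 0.333. Defining genes of the fibroblast were abundant, with DCN at 74843 and 102927 in Control2, 132283 and 153280.1 in Control3 and 20180.3 and 22584 in Control6. CDH1, SFTPC and KRT5 of epithelium, PECAM1 and CDH5 of endothelium, PTPRC, CD68 and CD3E of leukocytes and MYH11 of smooth muscle were absent from all 3 lists. Other markers of these types were listed. Their summed levels in Control2 were 131 to 166 (epithelial), 508 to 1277 (endothelial) and 7.34 to 9.63 (leukocyte, CD14 alone). Smooth muscle markers summed to 3301 to 3601 there, and chondrocyte markers to 2353 to 3635. In bulk libraries, fewer cells of a type and less RNA per cell cannot be told apart. COL4A1 and COL4A2 overlap in the annotation, and since the strand setting of the counting is not stated they may share reads. Gene positions are from the GENCODE annotation of hg38.

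Collagen genes took a large part of every library, as the plot of collagen shares displays. Their share of all normalized counts was 4.34% and 4.77% in Control2 and 1.79% and 2.14% in A485. It was 4.70% and 2.40% in Control3 and 3.98% and 1.92% in MS-275, so that the 2 libraries of each of these groups differed more than the groups did. In Control6 it was 4.61% and 4.36%, below the 6.06% and 6.10% of the pyruvate libraries. This share does not depend on the size factors. Per kilobase of transcript, the mean level in Control2 was 107903 for COL1A1, 88239 for COL1A2, 27626 for COL6A2, 25449 for COL6A1, 25179 for COL6A3 and 20737 for COL3A1. The same per-kilobase levels were 70351 for COL1A2 and 48019.8 for COL1A1 in Control6, and 62158 and 54651 in Control3, so of the 3 controls COL1A1 exceeded COL1A2 by mean level in Control2 alone. In Control3 the libraries disagreed, with a per-kilobase ratio of COL1A1 to COL1A2 of 1.13 and 0.488.

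**Figure D1:**
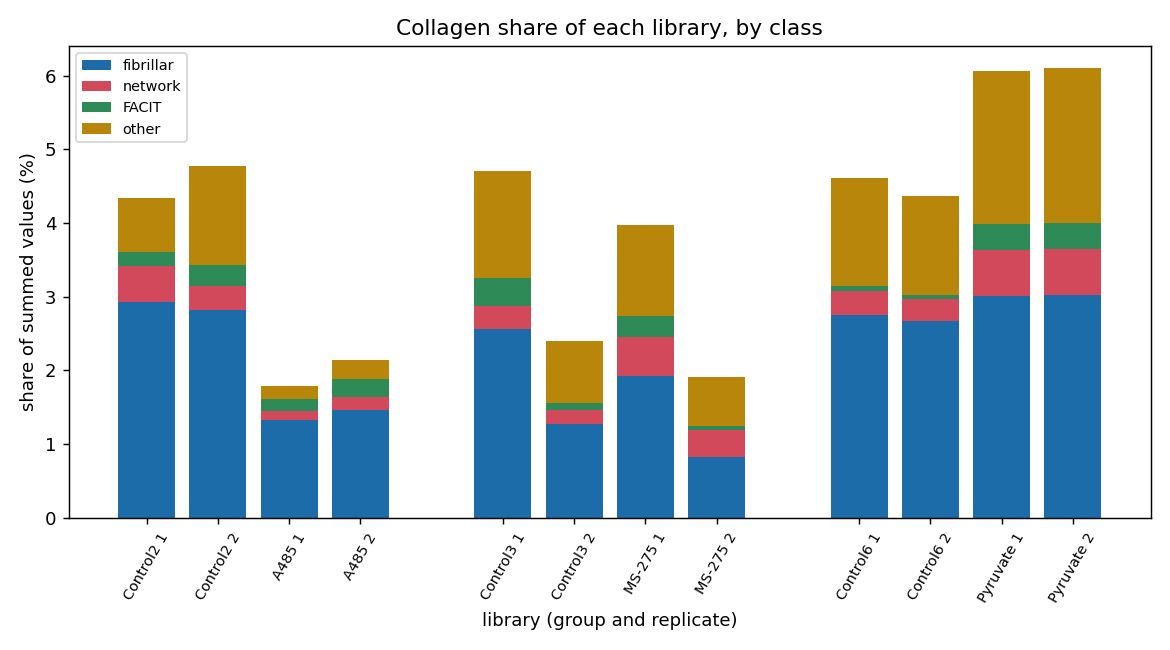
Share of all normalized counts taken by collagen genes (y axis, %) in each library (x axis, group and replicate), stacked by class. The A485 libraries stand at 1.79% and 2.14% against 4.34% and 4.77% in Control2, and the pyruvate libraries at 6.06% and 6.10% against 4.61% and 4.36% in Control6.

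After A485, collagen genes of every class fell. Of 27 collagen genes tested, 13 were called lower and 0 higher, where 7.06% of all 16084 genes were called lower and 3.31% higher. The log2 fold change was below 0 for 25 of the 27, against 49.5% of all genes, and both A485 libraries were below both controls for 19 and above both for 2, against 30.7% and 30.4%. The median log2 fold change was -1.32 for collagen genes and 0.01 for all genes. Called lower were 5 of 9 fibrillar, 3 of 6 network, 2 of 5 FACIT and 3 of 7 other collagens. Fibroblast markers were lower in the same libraries, with 7 of 8 called lower (all but S100A4) and a summed level of 221213 to 279635 in Control2 and 45396 to 50071 in A485. Of the markers of other cell types, both endothelial genes listed (VWF and TEK) were called lower, with summed levels of 508 to 1277 in Control2 and 118 to 189 in A485. Of 3 chondrocyte markers 2 were called lower (ACAN and SOX9, summed 2353 to 3635 in Control2 and 739 to 1004 in A485), of 2 smooth muscle markers 1 was (CNN1, summed 3301 to 3601 in Control2 and 317 to 431 in A485), and of 2 epithelial markers EPCAM was called higher (summed 131 to 166 in Control2 and 232 to 262 in A485). CD14, the leukocyte marker listed, was at 7.34 to 9.63 in Control2 and 23.6 to 24.9 in A485 and was not called. The part of these markers in the fall of the collagen genes was not tested.

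**Figure D2:**
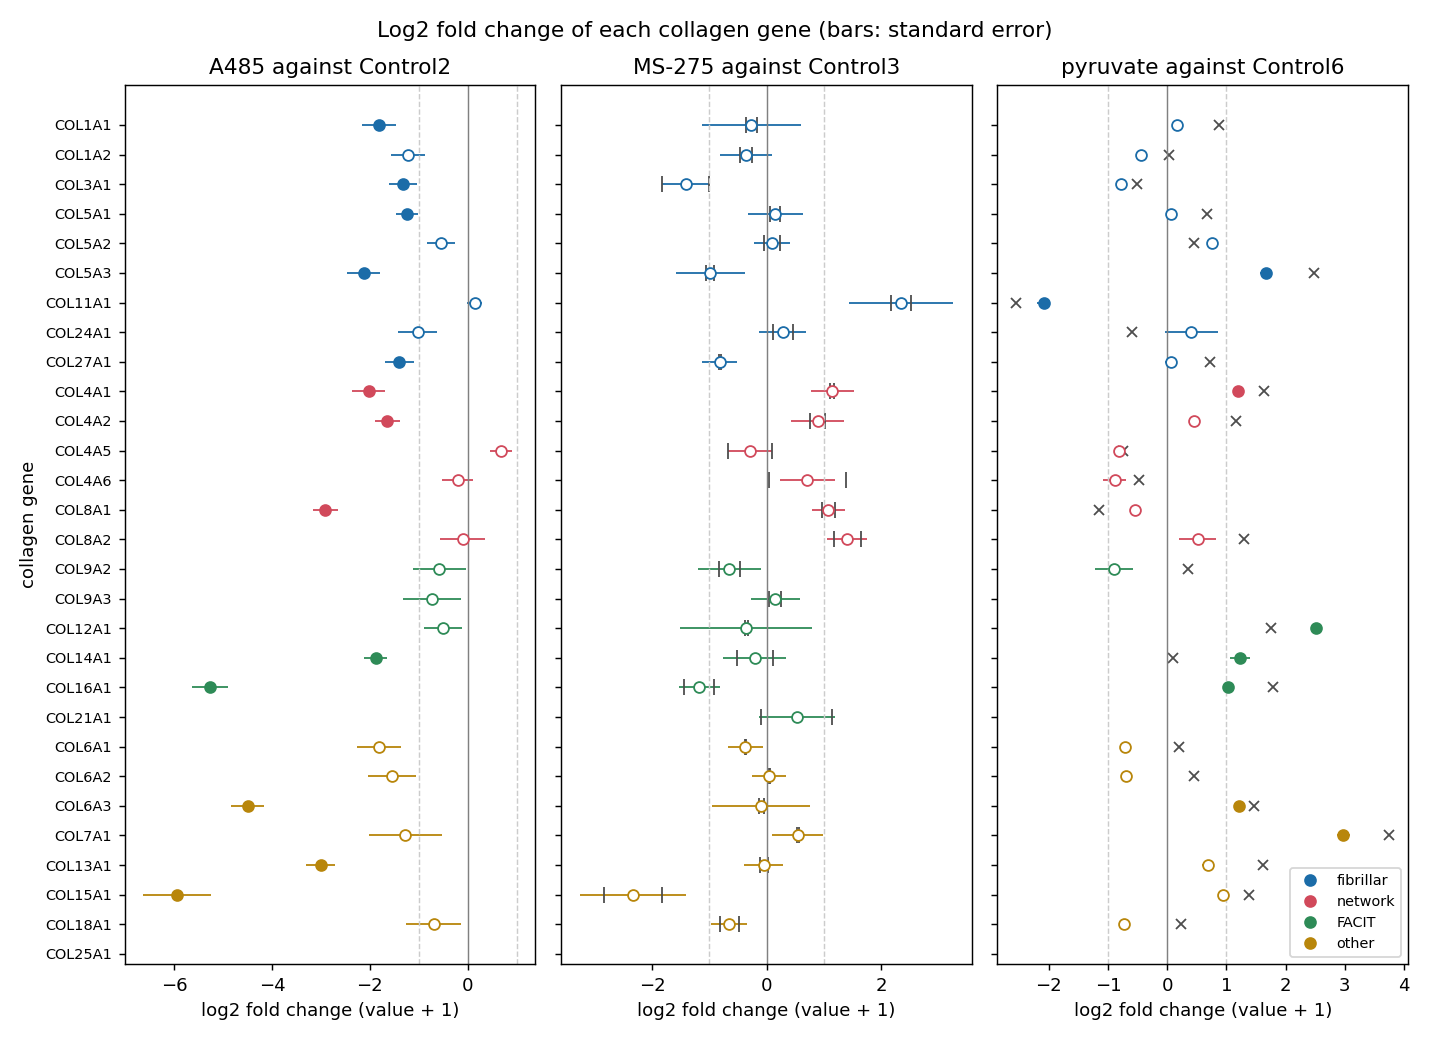
Log2 fold change (x axis) of each collagen gene tested (y axis, colored by class) in the A485, MS-275 and pyruvate experiments, with bars for the standard error and filled points for called genes. Ticks in the MS-275 panel are the differences within replicate number 1 and 2, and crosses in the pyruvate panel are values after removal of the GC and length trend. COL15A1 at -5.93 and COL16A1 at -5.27 are the lowest points after A485, and COL7A1 at 2.98 the highest after pyruvate.

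Among fibrillar collagens, COL1A1 and COL3A1 of the major fibers fell. COL1A1 (hg38 chromosome 17, 50184101 to 50201632), a chain of type I collagen, measured 620946 and 655334 in Control2 and 171288 and 194065 in A485 (log2 fold change -1.81, SE 0.35). Its partner COL1A2 measured 396683 and 498409 in Control2 and 175781 and 205457 in A485 (log2 fold change -1.23, SE 0.35) and missed the threshold. For COL3A1, the chain of type III collagen, the values were 129843 and 97854 in Control2 and 37651 and 54222 in A485 (log2 fold change -1.32, SE 0.29). In all 3 genes the A485 libraries lay below both controls. Type V collagen, which nucleates type I fibrils, fell in 2 of its chains. COL5A1 measured 42968 and 48434 in Control2 and 16662 and 22313 in A485 (log2 fold change -1.24, SE 0.22), and the less abundant COL5A3 measured 363 and 532 in Control2 and 96.1 and 104 in A485 (log2 fold change -2.12, SE 0.33). COL5A2 measured 72343 and 50973 in Control2 and 35091 and 49059 in A485, and its log2 fold change of -0.55 (SE 0.29) was not called. COL27A1, a fibrillar collagen of cartilage, measured 1035 and 1792 in Control2 and 527 and 505 in A485 (log2 fold change -1.40, SE 0.30). The exception in the class was COL11A1, a chain of type XI collagen, with 2469 and 2387 in Control2 and 2612 and 2749.6 in A485 (log2 fold change 0.14, SE 0.16). In limma with Benjamini-Hochberg adjustment, the adjusted p was 0.0269 for COL1A1, 0.071 for COL1A2, 0.0384 for COL3A1, 0.0225 for COL5A1, 0.0153 for COL5A3, 0.254 for COL5A2, 0.0347 for COL27A1 and 0.589 for COL11A1.

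Of the chains of type VI collagen, COL6A3 was called lower, and COL6A1 and COL6A2 were lower in value. COL6A3 (hg38 chromosome 2, 237324003 to 237414328) measured 194813 and 335562 in Control2 and 9588 and 13378 in A485, 23.1 times lower by mean (log2 fold change -4.50, SE 0.34). COL6A1 measured 63973 and 149952 in Control2 and 22030.3 and 34986 in A485 (log2 fold change -1.82, SE 0.45), and COL6A2 measured 53101 and 137242 in Control2 and 23011 and 37305 in A485 (log2 fold change -1.54, SE 0.49). For COL6A1 and COL6A2 the control libraries differed widely, and neither gene was called, although both A485 libraries lay below both controls. On the recovered reads, edgeR called COL6A1 lower and DESeq2 called both lower, while quantile normalization called neither. Per kilobase, the ratio of COL6A3 to COL6A1 was 1.22 and 0.893 in Control2 and 0.174 and 0.153 in A485. From limma, Benjamini-Hochberg adjusted p was 0.00221 for COL6A3, 0.0519 for COL6A1 and 0.0922 for COL6A2.

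Type XV and type XIII collagens fell too. COL15A1 (hg38 chromosome 9, 98943179 to 99070792), the chain of a basement membrane zone collagen, measured 2772 and 3223 in Control2 and 106 and 21.4 in A485 (log2 fold change -5.93, SE 0.70). The A485 libraries were unequal, and leaving out 1 library moved the log2 fold change to between -7.06 and -4.80. COL13A1, a membrane-spanning collagen, measured 1268 and 1308 in Control2 and 198 and 128 in A485 (log2 fold change -3.01, SE 0.29). COL7A1 of the anchoring fibrils overlapped between groups, with 482 and 1999 in Control2 and 252 and 653 in A485 (log2 fold change -1.27, SE 0.74). COL18A1, the source of endostatin, overlapped as well, with 3525 and 11776 in Control2 and 3073 and 5142 in A485 (log2 fold change -0.70, SE 0.57). By limma with Benjamini-Hochberg adjustment, the adjusted p was 0.0067 for COL15A1, 0.00377 for COL13A1, 0.299 for COL7A1 and 0.453 for COL18A1.

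In the network class, COL4A1, COL4A2 and COL8A1 fell after A485. COL4A1 (hg38 chromosome 13, 110148963 to 110307157) and COL4A2 (hg38 chromosome 13, 110305812 to 110513209) encode the common type IV chains of basement membranes. COL4A1 measured 116941 and 69326 in Control2 and 17732 and 27568 in A485 (log2 fold change -2.03, SE 0.35), and COL4A2 measured 81451 and 68849.7 in Control2 and 20099 and 28543 in A485 (log2 fold change -1.64, SE 0.25). In the pair on chromosome X, whose chains are found in fewer basement membranes, COL4A5 measured 4251 and 3502 in Control2 and 5173 and 7308 in A485 (log2 fold change 0.67, SE 0.22), with both A485 libraries above both controls, and COL4A6 had a log2 fold change of -0.20 (SE 0.32). COL8A1 (hg38 chromosome 3, 99638475 to 99799226), a type VIII chain, measured 7589.6 and 12165 in Control2 and 1199 and 1357 in A485 (log2 fold change -2.91, SE 0.25). Its partner COL8A2 had a log2 fold change of -0.10 (SE 0.46), and the per-kilobase ratio of COL8A1 to COL8A2 was 44.5 and 33.7 in Control2 and 6.34 and 4.78 in A485. In limma with Benjamini-Hochberg adjustment, the adjusted p was 0.0196 for COL4A1, 0.0145 for COL4A2, 0.00287 for COL8A1 and 0.104 for COL4A5.

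Of the FACIT collagens, 2 fell and the most abundant did not pass the test. COL16A1 (hg38 chromosome 1, 31652263 to 31704319) measured 4374 and 9426 in Control2 and 151 and 183 in A485, 41.4 times lower by mean (log2 fold change -5.27, SE 0.38). COL14A1, which binds fibril surfaces, measured 989 and 1031 in Control2 and 303 and 246 in A485 (log2 fold change -1.88, SE 0.23). COL12A1, a FACIT collagen of dense connective tissue, measured 72481 and 124810.0 in Control2 and 51296 and 86774 in A485 (log2 fold change -0.51, SE 0.39), and its groups overlapped. From limma, Benjamini-Hochberg adjusted p was 0.00193 for COL16A1, 0.00777 for COL14A1 and 0.422 for COL12A1. The tested collagens not given by library (COL4A6, COL8A2, COL9A2, COL9A3 and COL24A1) had log2 fold changes from -1.02 to -0.10, and none was called.

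The count of 13 lower collagen genes depended on having all 4 libraries. It was 2 without A485 replicate 1 (0.709% of all genes called lower), 4 without A485 replicate 2 (1.03%), 5 without Control2 replicate 1 (4.03%) and 3 without Control2 replicate 2 (2.57%), so that fewer genes were called in all. No collagen gene was called in all 4 of these fits. It was 8 with quantile normalization (6.29% of all genes), and 15 by edgeR (6.98%) and 16 by DESeq2 (9.59%) on the recovered reads. When library totals were made equal, the all-gene median shifted to 0.40 and the collagen median to -0.93, and COL4A5 was then called higher beside 12 genes called lower, against 10.4% and 5.59% of all genes.

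**Figure D3:**
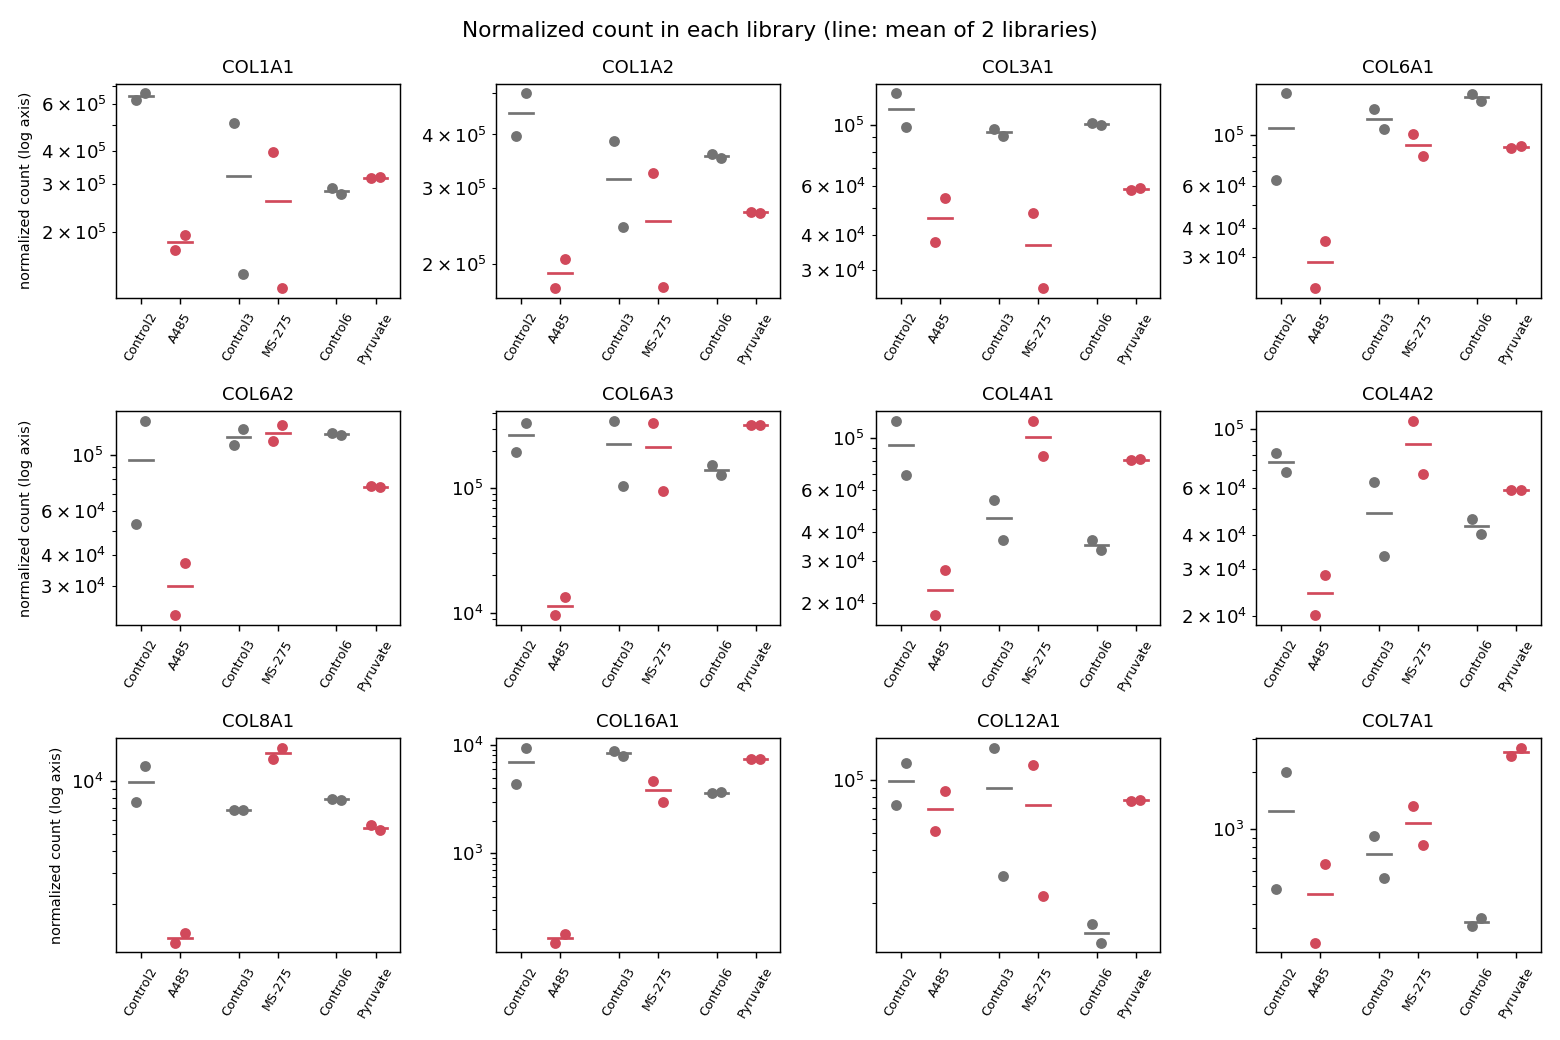
Normalized count (y axis, log scale) of 12 collagen genes in each library, with control libraries in gray, treated libraries in red and a line at the mean of the 2 libraries of a group. COL6A3, COL8A1 and COL16A1 lie far below their controls after A485, while COL1A1, COL6A3 and COL12A1 differ more between the 2 Control3 libraries than between Control3 and MS-275.

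Genes that serve collagen elsewhere in the cell were followed as lists. Of 29 genes for folding, processing and crosslinking of collagen, 6 were called lower after A485 and 0 higher (median log2 fold change -0.71), beside the 7.06% and 3.31% of all genes. These were SERPINH1, the collagen chaperone (log2 fold change -1.64), LOX, LOXL1 and LOXL2 of crosslinking (-2.77, -1.98 and -1.46), PCOLCE, an enhancer of procollagen cleavage (-2.70), and P4HA3, a prolyl hydroxylase chain (-2.52). Of 6 collagen receptor genes tested, 4 were called lower, namely ITGA11 (-3.24), ITGA2 (-1.94), DDR2 (-1.52) and ITGA1 (-1.43). Of 14 regulators of collagen genes, SMAD3 (-2.25), which carries TGF-beta signals, and CEBPB (-1.88) were called lower and 0 higher.

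After MS-275, no collagen gene passed the test. Of 28 tested, 0 were called by limma, as were 0.0% of all 15883 genes in either direction. On the recovered reads edgeR also called 0 (0.0% of all genes), and DESeq2 called 0, where it called 2.19% of all genes higher and 1.43% lower. At an unadjusted p under 0.05 there were 6 collagen genes (10.9% of all genes). The median log2 fold change was -0.07 for collagen genes and -0.01 for all genes. The 2 libraries of each group stood apart in the same way, and library 1 of each group held the larger collagen share. The test took no account of the library number, so this shared difference counted as spread within groups. Calls with the number as a block are given at the end. Differences were therefore also read between the libraries of the same number, although the labels do not say that the number pairs them. Within both numbers, 3 collagen genes were higher by more than 1 on the log2 scale and 2 were lower, against 6.81% and 4.85% of all genes.

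The network class had a median log2 fold change of 0.98, and both MS-275 libraries were above both controls in 5 of its 6 genes. Over all classes this held for 7 collagen genes, and 6 were below both controls, against 19.5% and 19.3% of all genes. COL4A1 measured 54596 and 36820.0 in Control3 and 118038 and 83753 in MS-275, with within-number differences of 1.11 and 1.19. COL4A2 measured 63439.8 and 33418 in Control3 and 107534 and 67755 in MS-275, with differences of 0.76 and 1.02. For this pair, both MS-275 libraries lay above both Control3 libraries. COL8A1 measured 6889.8 and 6812 in Control3 and 13433 and 15536 in MS-275 (differences 0.96 and 1.19). COL8A2 measured 257 and 255 in Control3 and 578 and 797 in MS-275 (differences 1.17 and 1.64). COL4A5 was the exception, with 3043 and 3031 in Control3 and 3237 and 1899 in MS-275 (differences 0.09 and -0.67), while COL4A6 had a log2 fold change of 0.71 (SE 0.48). By limma with Benjamini-Hochberg adjustment, the adjusted p was 0.375 for COL4A1, 0.613 for COL4A2, 0.312 for COL8A1 and 0.292 for COL8A2.

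Among fibrillar collagens, COL3A1 and COL11A1 differed by the most, in opposite directions. COL11A1 (hg38 chromosome 1, 102876467 to 103108872) measured 3104 and 742 in Control3 and 13920.0 and 4276 in MS-275 (log2 fold change 2.35, SE 0.91), with within-number differences of 2.16 and 2.53. COL3A1 measured 96801 and 91024 in Control3 and 48244 and 25731 in MS-275 (log2 fold change -1.41, SE 0.40), with differences of -1.0 and -1.82. For both genes the groups did not overlap. The chains of type I collagen followed the library number instead. COL1A1 measured 507812 and 138599.8 in Control3 and 396171 and 123075 in MS-275 (differences -0.36 and -0.17), and COL1A2 measured 386854 and 243676 in Control3 and 325435 and 176922 in MS-275 (differences -0.25 and -0.46). COL5A1 measured 40089 and 20798 in Control3 and 41863 and 24590.5 in MS-275 (differences 0.06 and 0.24). COL5A2 measured 36145 and 32037 in Control3 and 42724 and 30905 in MS-275 (differences 0.24 and -0.05), and for these 4 genes the groups overlapped. COL27A1 did not overlap, with 1214 and 1318 in Control3 and 699 and 739 in MS-275 (differences -0.80 and -0.83). In limma with Benjamini-Hochberg adjustment, the adjusted p was 0.462 for COL11A1, 0.332 for COL3A1 and 0.45 for COL27A1.

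The chains of type VI collagen had small differences within number after MS-275. COL6A3 measured 348171 and 104364 in Control3 and 335748 and 94849 in MS-275 (differences -0.05 and -0.14). COL6A1 measured 128598 and 105137 in Control3 and 100150.4 and 81106 in MS-275 (differences -0.36 and -0.37) and COL6A2 109185 and 127169 in Control3 and 113346 and 131439 in MS-275 (differences 0.05 and 0.05). The standard error of the log2 fold change was 0.86 for COL6A3, 0.31 for COL6A1 and 0.30 for COL6A2. Lower within both numbers was COL15A1, with 8508 and 3330.0 in Control3 and 2403 and 463 in MS-275 (log2 fold change -2.33, SE 0.93, differences -1.82 and -2.84). COL18A1 measured 7039 and 6767 in Control3 and 5017 and 3853 in MS-275 (differences -0.49 and -0.81) with no overlap, and COL13A1 measured 1042 and 1406 in Control3 and 1055 and 1292 in MS-275 (differences 0.02 and -0.12) with overlap. COL7A1 measured 917 and 554 in Control3 and 1322 and 819 in MS-275 (differences 0.53 and 0.56). COL25A1, at 5.94 and 0 in Control3 and 13.6 and 16.9 in MS-275, had a mean below 10 and was not tested.

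In the FACIT class, COL16A1 measured 8822 and 7984 in Control3 and 4677 and 2949.7 in MS-275 (differences -0.92 and -1.44) and did not overlap between groups. COL12A1 measured 153407 and 28708 in Control3 and 122399.6 and 22031 in MS-275 (differences -0.33 and -0.38), and COL14A1 measured 1313 and 838 in Control3 and 1417 and 587 in MS-275 (differences 0.11 and -0.51). For COL12A1 the libraries of number 2 were far below those of number 1 in both groups. The remaining collagens tested (COL5A3, COL9A2, COL9A3, COL21A1 and COL24A1) had log2 fold changes from -0.98 to 0.53. Without Control3 replicate 1, COL11A1 was called higher (1.84% of all genes), and without Control3 replicate 2, COL15A1 was called lower (0.938%). Without MS-275 replicate 2, the collagen median was 0.38. None of the 29 folding and crosslinking genes, 7 receptors, 14 regulators or 8 fibroblast markers was called, as were 0.0% of all 15883 genes. These counts therefore cannot set the lists apart from other genes. Within both numbers, 4 folding and crosslinking genes, 2 receptors, 1 regulator and 1 fibroblast marker were higher by more than 1 (6.81% of all genes). Lower by more than 1 were 2 folding and crosslinking genes and 1 fibroblast marker (4.85% of all genes). The summed fibroblast markers were 287984 to 310432 in Control3 and 320828 to 376418 in MS-275.

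The A485 and MS-275 effects on collagen genes were set against each other by limma in 1 contrast across the 8 libraries of the 2 experiments, which share no control. The difference was called for 4 of 27 collagen genes, all lower after A485, where 3.20% of 15130 genes were called in that direction and 0.608% in the other. COL8A1 had the A485 effect at -2.91 and the MS-275 effect at 1.08, a difference of -3.99 (SE 0.40). The difference was -3.17 (SE 0.56) for COL4A1, -4.09 (SE 0.57) for COL16A1 and -2.95 (SE 0.45) for COL13A1. In COL4A1 and COL8A1 the effects were opposite in sign, and in COL16A1 both were below 0. From limma, Benjamini-Hochberg adjusted p was 0.00447 for COL8A1, 0.0129 for COL16A1, 0.0172 for COL13A1, 0.0265 for COL4A1, 0.0571 for COL4A2 and 0.0672 for COL6A3. COL3A1, lower in value after both treatments, had a difference of 0.09 (SE 0.53). COL8A1 was called with each of the 8 libraries left out in turn. COL8A1 was the 1 gene called without A485 replicate 1 or A485 replicate 2, and COL8A1 and COL16A1 were the 2 called without Control2 replicate 1 or Control2 replicate 2. The COL4A1 call was also lost without Control3 replicate 2 and without MS-275 replicate 1.

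After pyruvate, 7 of 26 collagen genes tested were called higher and 1 lower, where 31.0% of all 12013 genes were called higher and 23.1% lower, so the count of higher calls did not exceed that of genes in general. Called higher were a chain each of types IV, V, VI, VII, XII, XIV and XVI, of which COL14A1 of type XIV was not called with the GC trend removed, and called lower was COL11A1 of type XI. Both pyruvate libraries were above both controls in 13 collagen genes and below in 10, against 45.2% and 45.3% of all genes. The median log2 fold change was 0.28 for collagen genes and -0.01 for all genes. In this comparison the log2 fold change of all genes declined with the GC content of the transcript, and collagen transcripts are richer in GC (median 55.2%) than those of all listed genes (median 48.0%). Values are therefore given also after removal from each library of its trend on GC content and transcript length. With the trend removed, 10 collagen genes were called higher and 2 lower, against 15.6% and 13.2% of all genes, and the collagen median was 0.56.

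**Figure D4:**
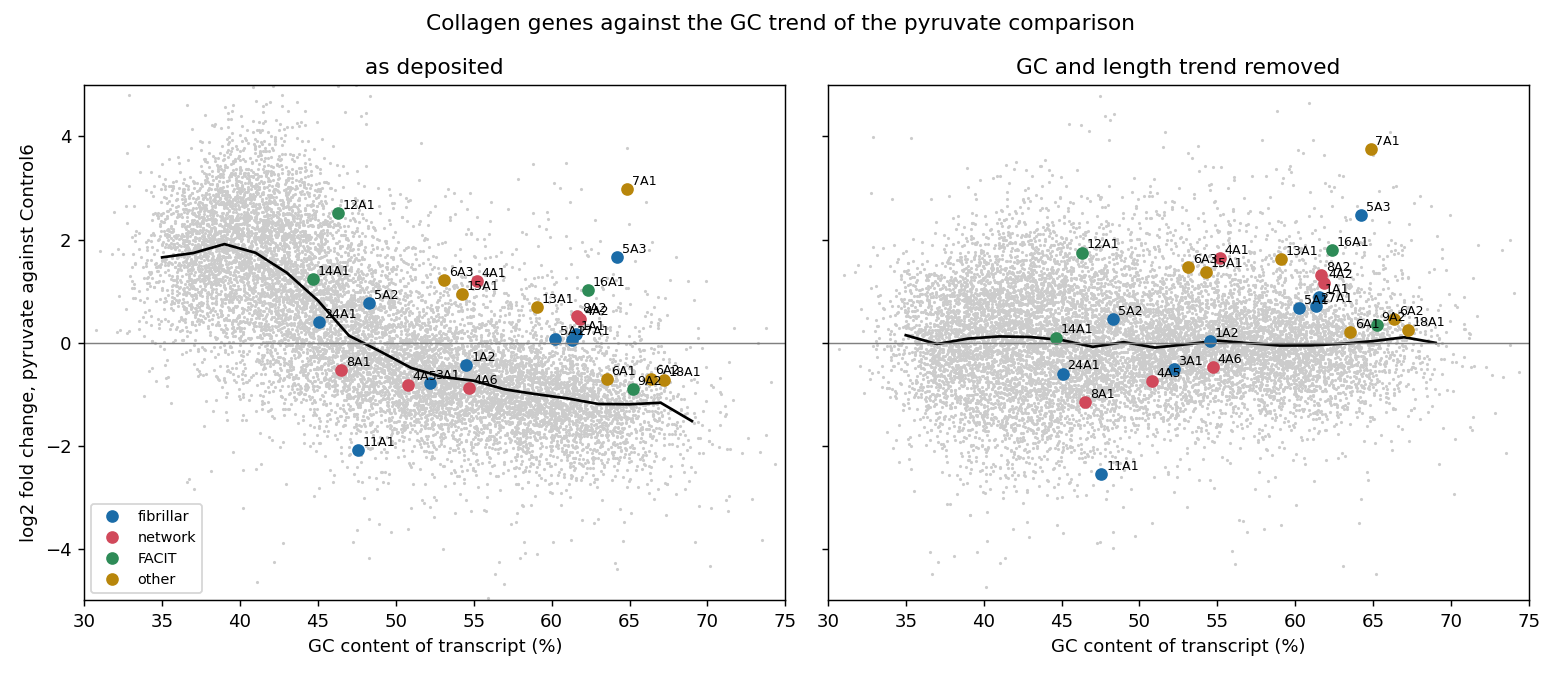
Log2 fold change after pyruvate (y axis) against GC content of the transcript (x axis, %), as deposited (left) and after removal of the GC and length trend (right), with all genes in gray, their median in steps of GC content as a black line and collagen genes colored by class and labeled without the prefix COL. COL7A1 and COL5A3 stand above genes of the same GC content in both panels, and COL14A1 lies near the line in the right panel.

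As deposited, the largest rises were in type VII and type XII collagen, and with the trend removed COL5A3 and COL16A1 also stood above COL12A1. COL7A1 (hg38 chromosome 3, 48564073 to 48595329) measured 307 and 341 in Control6 and 2436 and 2685 in Pyruvate, 7.90 times higher by mean (log2 fold change 2.98, SE 0.11, and 3.76 with the trend removed). Genes within 1 percentage point of its GC content of 64.8% had a median of -1.20. COL12A1 (hg38 chromosome 6, 75084326 to 75206267) measured 15215 and 12005 in Control6 and 76169.8 and 77820.4 in Pyruvate, 5.66 times higher (log2 fold change 2.51, SE 0.09, and 1.75 with the trend removed, where genes of like GC content had a median of 0.41 as deposited). The other FACIT collagens called were COL16A1 and COL14A1. COL16A1 measured 3585 and 3687 in Control6 and 7364 and 7382 in Pyruvate (log2 fold change 1.02, SE 0.06, and 1.79 with the trend removed). Without Control6 replicate 1, its log2 fold change came just under the minimum and it was not called. COL14A1 measured 269 and 203 in Control6 and 505 and 599 in Pyruvate (log2 fold change 1.23, SE 0.17), but its value was 0.10 with the trend removed and it was then not called. By limma with Benjamini-Hochberg adjustment, the adjusted p was 7.94e-10 for COL7A1, 7.1e-10 for COL12A1, 3.11e-08 for COL16A1 and 4.69e-05 for COL14A1.

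The chains of type VI collagen differed in direction after pyruvate. COL6A3 measured 152819 and 126661 in Control6 and 320734 and 323242 in Pyruvate (log2 fold change 1.21, SE 0.07) and was called higher. COL6A1 measured 149699 and 139216 in Control6 and 87617 and 89305 in Pyruvate (log2 fold change -0.71, SE 0.05), and COL6A2 measured 122663 and 120707 in Control6 and 75206 and 74709.5 in Pyruvate (log2 fold change -0.70, SE 0.05). These 2 genes lay below their controls as deposited and turned above 0 with the trend removed, at 0.21 and 0.45, against 1.46 for COL6A3. Per kilobase, the ratio of COL6A3 to COL6A1 was 0.407 and 0.363 in Control6 and 1.46 and 1.44 in pyruvate. In limma with Benjamini-Hochberg adjustment, the adjusted p was 3.65e-08 for COL6A3, 1.4e-07 for COL6A1 and 6.36e-08 for COL6A2. Of the other basement membrane zone collagens, COL15A1 measured 1723 and 1899 in Control6 and 3426 and 3509 in Pyruvate (log2 fold change 0.94, SE 0.08, and 1.38 with the trend removed). COL18A1 measured 7109 and 6265 in Control6 and 3885 and 4194 in Pyruvate, and its log2 fold change of -0.73 turned to 0.24 with the trend removed. COL13A1 measured 803 and 751 in Control6 and 1277 and 1219 in Pyruvate (log2 fold change 0.68, and 1.62 with the trend removed).

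Among fibrillar collagens, COL5A3 rose and COL11A1 fell. COL5A3 measured 644 and 598 in Control6 and 1869.8 and 2079 in Pyruvate (log2 fold change 1.67, SE 0.10, and 2.47 with the trend removed). COL11A1 measured 1556 and 1686 in Control6 and 368 and 393 in Pyruvate (log2 fold change -2.09, SE 0.11, and -2.55 with the trend removed). These directions were the same in both treatments of the GC trend. COL1A1 measured 291571 and 276408 in Control6 and 316388 and 318909 in Pyruvate (log2 fold change 0.16, and 0.88 with the trend removed). COL1A2 measured 360413 and 353223 in Control6 and 263827 and 263508 in Pyruvate, and its log2 fold change of -0.44 became 0.03. Their per-kilobase ratio was 0.694 and 0.671 in Control6 and 1.03 and 1.04 in pyruvate. COL3A1 was lower in both, with 101608 and 99444 in Control6 and 57982 and 59129 in Pyruvate (log2 fold change -0.78, and -0.51 with the trend removed). COL5A2 measured 22081 and 21070.2 in Control6 and 36017 and 37344 in Pyruvate (log2 fold change 0.77, and 0.45 with the trend removed). COL5A1, with 38198 and 33822 in Control6 and 37767 and 37673 in Pyruvate, and COL27A1, with 1185 and 1058 in Control6 and 1179.7 and 1154 in Pyruvate, overlapped between groups, and their values were 0.68 and 0.72 with the trend removed. From limma, Benjamini-Hochberg adjusted p was 3.07e-08 for COL5A3, 9.66e-09 for COL11A1, 0.00784 for COL1A1 and 3.09e-08 for COL3A1.

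In the network class, COL4A1 was called higher and its partner was not. COL4A1 measured 37029 and 33493 in Control6 and 80166 and 81289 in Pyruvate (log2 fold change 1.20, SE 0.06, and 1.63 with the trend removed). COL4A2 measured 46108 and 40389 in Control6 and 59045 and 59379 in Pyruvate (log2 fold change 0.46, SE 0.06) and was called with the trend removed, at 1.16. On chromosome X, COL4A5 measured 3159 and 2940.4 in Control6 and 1697 and 1768 in Pyruvate (log2 fold change -0.81, and -0.75 with the trend removed), and COL4A6 had a log2 fold change of -0.89 (SE 0.20). COL8A1 measured 7909.6 and 7824 in Control6 and 5623 and 5233 in Pyruvate (log2 fold change -0.54, SE 0.06) and was called lower with the trend removed, at -1.16. Its partner COL8A2 had a log2 fold change of 0.51 (SE 0.32) and was called higher with the trend removed, at 1.31. By limma with Benjamini-Hochberg adjustment, the adjusted p as deposited was 4.76e-09 for COL4A1, 3.24e-05 for COL4A2, 1.42e-06 for COL4A5 and 8.12e-06 for COL8A1. The low-abundance COL9A2 and COL24A1 had log2 fold changes of -0.90 (SE 0.32) and 0.41 (SE 0.45), which turned to 0.35 and -0.60 with the trend removed. In all, 6 collagen genes changed sign with the trend removed (COL1A2, COL6A1, COL6A2, COL9A2, COL18A1 and COL24A1), and none of them was called as deposited.

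Other scalings changed the split of pyruvate calls. With quantile normalization 9 collagen genes were called higher and 3 lower, against 26.2% and 26.9% of all genes. With equal library totals, which put the all-gene median at 0.30, 9 were called higher and 1 lower, against 36.6% and 14.5%. Leaving out 1 library also changed which collagen genes were called, and the collagen median then ran from 0.12 to 0.31. Of 26 folding and crosslinking genes tested, 5 were called higher and 6 lower, beside 31.0% and 23.1% of all genes, and with the trend removed 4 were called higher and 3 lower, beside 15.6% and 13.2%. The highest was P4HA1, a prolyl hydroxylase chain, at 3.11 (1.56 with the trend removed), and the lowest was P3H2 at -2.33 (-1.99). Of 6 receptor genes 4 were called higher and 1 lower (1 and 1 with the trend removed), with ITGB1, the common chain of collagen-binding integrins, at 1.99 (0.23 with the trend removed). Of 14 regulators 6 were called higher and 0 lower (3 and 1 with the trend removed). Their summed level was 74696 to 77197 in Control6 and 59822 to 61376 in Pyruvate. Those called higher included NFYA at 1.72 (1.03) and SP1 at 2.02 (0.94, under the minimum for a call). Their proteins bind CCAAT boxes and GC boxes, and a link to the motifs above was not tested. Of 8 fibroblast markers, 4 were called higher and 1 lower (1 and 1 with the trend removed), and their summed level was 145500.0 to 153885 in Control6 and 143492 to 143703 in pyruvate. Of the 2 endothelial markers TEK was called higher and VWF lower (summed 358 to 481 in Control6 and 1448 to 1469 in Pyruvate), of 2 chondrocyte markers MATN3 was called higher (summed 1019 to 1164 in Control6 and 1587 to 1717 in Pyruvate), and the 1 smooth muscle marker listed, CNN1, was called lower (summed 5772 to 5806 in Control6 and 2275 to 2284 in Pyruvate). The part of these genes in the collagen values was not tested.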

How the data were processed

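RNA sequencing of 12 IMR90 libraries in 6 groups was used; the 8 mouse muscle libraries of the series were not used here. The submitters' processing notes name Trim Galore (0.6.10), HISAT2 (2.2.1), SAMtools (1.7), featureCounts (2.0.6), DESeq2 (1.34.0) and the hg38 build, without parameters. The deposited values are a signal, namely counts divided by 1 size factor per library. The annotation and strand setting are not given in the sources used here. The study used more than 1 sequencing provider, and which made each library is not given, so such a batch could not be examined. By a chi-square comparison of counts, replicates of every group differed by more than sampling noise.

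Whole reads were recovered from 100% of values by division (tolerance 0.01 of a read). Groups came from the sample titles, and each treatment was compared with its own control. Genes with a mean of at least 10 were tested with limma (3.58.1, eBayes with trend) in R (4.3.3) on log2(value + 1), a scale that understates changes of low genes, with Benjamini-Hochberg adjustment over all genes. Alternatives used edgeR (4.0.16, quasi-likelihood test) and DESeq2 (1.42.0) on the recovered reads, a pseudocount of 10, no filter, TMM factors, equal totals, quantile normalization, the replicate number as a block, each library left out, and removal of a natural spline (5 degrees of freedom) on GC content and transcript length from each library, with the median deviation held. GENCODE matched 29 of 29 collagen genes and 17247 of 17554 genes in all. Python (3.11.15), numpy (2.4.6), pandas (2.3.3) and matplotlib (3.10.9) served other steps. The fits were tested on simulated data. Collagen genes were given by library where called or with a mean of at least 1000 in either group, and after MS-275 also where both within-number differences passed 1; partners of these were given by fold change and the rest by range. Library-mean holding in the trend removal, each library left out of the contrast of effects, and other settings of the within-number counts were alternatives chosen after seeing the data. Members and lists were chosen with earlier results of these data known.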

Additional observations from a re-analysis of the deposited data

Results flagged for a closer look

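The effects of A485 and MS-275, each taken against its own control, were set against each other by a limma contrast over the 8 libraries. With Benjamini-Hochberg adjustment over all genes, the difference was called for 4 of 27 collagen genes, which is what singled them out here. All 4 were lower after A485, where 3.20% of 15130 genes were called in that direction. The A485 effect minus the MS-275 effect on the log2 scale was -3.99 for COL8A1, -4.09 for COL16A1, -3.17 for COL4A1 and -2.95 for COL13A1. In COL8A1, a type VIII chain, the A485 libraries lay below both of their controls and the MS-275 libraries above both of theirs, and COL4A1, a type IV chain, had the same arrangement. In COL16A1 both treatments lay below their controls, and in COL13A1 the MS-275 libraries overlapped with Control3. The COL8A1 difference was called with any 1 of the 8 libraries left out, and the other 3 were each lost without at least 1 library.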

How the results depend on the processing

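Over single collagen genes and alternatives, 263 values after A485 kept direction and side of the threshold, 45 lost the call, 19 gained one and 3 changed direction. The same counts were 292, 0, 16 and 22 after MS-275 and 293, 5, 18 and 14 after pyruvate. Leaving out 1 library changed the calls of collagen genes in each experiment and in the difference between the A485 and MS-275 effects. The collagen median then ran from -0.26 to 0.38 after MS-275, -1.58 to -1.06 after A485 and 0.12 to 0.31 after pyruvate. After A485, quantile normalization gave 8 lower calls, a collagen median of -0.85, and values above 0 for COL5A2 (0.29) and COL12A1 (0.26). Equal totals gave 1 higher call and a median of -0.93. COL18A1 ran from -1.57 to 0.17 with 1 library left out. After MS-275 the same ranges, all across 0, were -1.20 to 0.67 for COL1A1, -0.80 to 0.084 for COL1A2, -0.68 to 0.092 for COL4A5, -0.32 to 0.63 for COL5A1, -0.14 to 0.33 for COL5A2, -0.059 to 0.16 for COL6A2, -1.01 to 0.82 for COL6A3, -1.59 to 0.88 for COL12A1, -0.27 to 0.16 for COL13A1 and -0.84 to 0.43 for COL14A1. Quantile normalization put COL5A1 at -0.089, COL5A2 at -0.088 and COL6A2 at -0.24, and equal totals put COL5A2 at -0.048 and COL6A2 at -0.092. After pyruvate, removal of the GC and length trend gave 2 lower calls, a median of 0.56, and values of 0.029 for COL1A2, 0.21 for COL6A1, 0.45 for COL6A2 and 0.24 for COL18A1, with or without the replicate block. COL9A2 and COL24A1 turned as well, as given above. With library means held, a choice made after seeing the data, there were 11 higher calls (20.6% of all genes), a median of 0.76 and values of 0.22 for COL1A2, 0.40 for COL6A1, 0.65 for COL6A2 and 0.43 for COL18A1. COL1A1 was then among the higher calls. COL8A1 lost its lower call, which left 1 lower call, COL11A1 (9.53% of all genes). The median was 0.59 with equal totals and 0.18 with quantile normalization, where 3 genes were called lower. With 1 library left out, COL5A1 ran from -0.018 to 0.16 and COL27A1 from -0.022 to 0.14. The cause of these shifts was not tested.

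Replicate numbers are shared by the groups, and no label says that they mark a pairing. Deviations of same-numbered libraries from their group means correlated across genes with r of 0.316 in the A485 experiment, 0.728 in the MS-275 experiment and 0.002 in the pyruvate experiment, and genes are not independent replicates. With the replicate number as a block, 17 collagen genes were called lower after A485, where 1616 of all 16084 genes were. After MS-275, 4 were called higher (COL4A1, COL8A1, COL8A2 and COL11A1) and 3 lower (COL3A1, COL15A1 and COL16A1), against 7.74% and 6.0% of all genes, also with the trend removed. The block gave 7 higher and 1 lower after pyruvate, against 31.0% and 23.2% of all genes, and 17 for the difference between effects, all lower after A485, against 12.5%. Within replicate number, the 5 collagen genes past 1 after MS-275 became 7 with equal totals, 6 without the filter and 5 with a pseudocount of 10, settings chosen after seeing the data. The share of all genes past 1 at these settings is not given here. The change in count can therefore not be read as particular to collagen genes. At 24179065 to 46971227 reads per library, counting error was small beside the spread between replicates, which differed by more than sampling noise in every group.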
